A study of Rattus norvegicus with 12 samples.

Results

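Meningeal fibroblast and matrix genes are described here across the 12 hippocampal libraries of a blast injury study in rats. The list holds 36 genes of the fibroblasts and the extracellular matrix of the brain's coverings. Of these, 32 had a row in the table of 17494 genes, and all 32 passed the filter on low counts that 12325 genes passed. Col6a1, Col6a3, Col12a1 and Cemip were not analysed here. The members were chosen from results on the levels of these genes in the same libraries, with the difference between treatments in view, so that difference and the shared variation are given as descriptions and carry no independent evidence.

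All 12 rats were wild-type male Long Evans rats that received 3 blast exposures, 1 per day, at 10 weeks of age. Blast-boldine rats (n = 6) ate chow with the plant alkaloid boldine, a blocker of connexin hemichannels, at 500 mg/kg from week 2 after blast until they were sacrificed 29 weeks after blast, and blast-control rats (n = 6) ate the same chow without it. The libraries compared hold no sham-exposed rats, so each difference is between treatments among blast-exposed rats. Each library came from 1 rat and from tissue that the study's methods call hippocampus, dissected in bulk, and the labels brain.

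The leptomeninges, the arachnoid and the pia, are layers of fibroblasts over the brain surface that dip into the hippocampal fissure and line the larger vessels. Their cells secrete collagens and small proteoglycans, make retinoic acid and prostaglandin D2, and form, at the arachnoid, a barrier with transporters for organic ions. Fibroblasts also lie around vessels and in the stroma of the choroid plexus, and many genes of the list are used by endothelium, glia or the choroid plexus epithelium as well. In a bulk library, a lower level of a marker can come from fewer cells of a type or from less RNA per cell, and these cannot be told apart.

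Total counts on genes lay between 10148474 and 40850106 in 11 libraries and were 74008 in that of blast-control rat 6. Levels are given as CPM, counts divided by the TMM-scaled size of the library, and a single count was worth 15.8 CPM in rat 6 against no more than 0.102 CPM elsewhere. In rat 6, 22 of the 32 members had 0 counts, 7 had 1 to 3 counts, and Igf2 (5 counts), Igfbp5 (8 counts) and Igfbp4 (11 counts) had more. These counts sum to 34, against 6041 to 35794 member counts in the other libraries, so levels are given for 11 libraries and fits with and without rat 6. A count of 3, taken as the floor of detection, was 47.5 CPM in rat 6 and 0.0658 to 0.307 CPM in the others, and these floors leave out any error but that of counting. Each library name ends in a suffix from S1 to S6, and each suffix was used on 2 libraries. Rats 1, 7, 9, 20, 32 and 35 were assigned to a set A and the others to a set B. This accounted for 95.05% of the first principal component, and treatment for 1.535%. The component was computed over genes that passed the filter in the 11 libraries other than rat 6. Rat 6 was placed in set B by its suffix alone. Each set holds 3 rats of each treatment. What the sets stand for is not given in the sources used here, and "set removed" below means that set means were subtracted from log2 CPM.

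Both defining markers of leptomeningeal fibroblasts were detected in all 11 libraries. Slc6a13, a GABA and taurine transporter of the leptomeninges, spans 154540468 to 154576152 of chromosome 4 (mRatBN7.2, as for all genes below) and had 21 to 195 counts. It measured 2.60, 3.17, 3.92, 3.07, 8.96 and 7.02 CPM in blast-boldine rats 12, 17, 19, 20, 32 and 35. Blast-control rats 1, 4, 5, 7 and 9 measured 2.94, 2.07, 2.76, 2.10 and 1.92 CPM. Rats 32 and 35 stood well above the others, 5 of the 6 blast-boldine rats were above every control, and rat 12 lay within the control range. The group means were 4.79 ± 2.59 CPM (SD, n = 6) and 2.36 ± 0.461 CPM (SD, n = 5), and the fit to all 12 rats gave a log2 fold change of 0.98 (SE 0.35, edgeR adjusted p = 1.0). With rats 32 and 35 left out the log2 fold change was 0.38 (SE 0.27). Both rats belong to set A, so leaving them out keeps 1 blast-boldine rat of set A beside 3 of set B, and such values are therefore given also with rat 6 left out and the set as a covariate, here 0.39 (SE 0.22).

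Decorin (Dcn), a small proteoglycan that binds collagen fibrils, behaved otherwise. It lies on chromosome 7 from 32281252 to 32321285 and measured 12.5, 11.2, 9.08, 16.6, 20.3 and 18.3 CPM in blast-boldine rats 12, 17, 19, 20, 32 and 35. In blast-control rats 1, 4, 5, 7 and 9 it measured 15.9, 8.99, 14.4, 24.7 and 11.3 CPM. The highest library was the control of rat 7, and the groups covered nearly the same range, with a log2 fold change of -0.02 (SE 0.29). Across 11 libraries Dcn and Slc6a13 correlated at r = 0.35 (Spearman's rho 0.36), and at r = -0.19 without rats 32 and 35, the 2 libraries farthest from the median of Slc6a13. The pair of markers therefore did not order the libraries alike, and the list is called by its label here without a claim that its reads come from meninges.

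**Figure D1:**
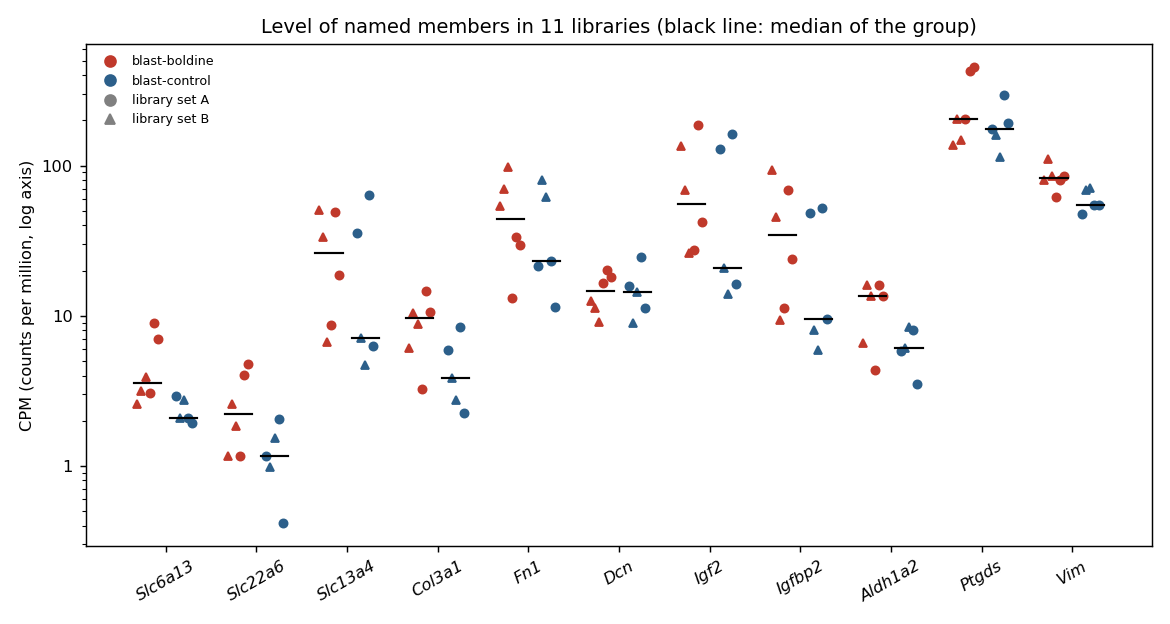
Levels of 11 members in 11 libraries, as CPM on a log axis (rat 6, with 74008 counts, is not drawn). Points are libraries, coloured by treatment and shaped by library set, and black lines are medians of the group. Rats 32 and 35 are the top blast-boldine points for Slc6a13, Slc22a6 and Ptgds, while Slc13a4, Igf2 and Igfbp2 have high points in both groups.

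The other 4 arachnoid barrier transporters were higher in blast-boldine rats by the fitted value, but they did not share an order of libraries. Slc22a6 (OAT1, which takes up organic anions) measured 1.16, 2.58, 1.85, 1.17, 4.04 and 4.78 CPM in blast-boldine rats 12, 17, 19, 20, 32 and 35. Blast-control rats 1, 4, 5, 7 and 9 measured 1.16, 0.987, 1.54, 2.04 and 0.417 CPM, from as few as 5 counts. Rats 35 and 32 were again the highest and 3 blast-boldine rats lay within the control range, with a log2 fold change of 1.07 (SE 0.44, edgeR adjusted p = 1.0). Slc22a6 correlated with Slc6a13 at r = 0.82 (rho 0.77), and at r = 0.59 without rats 32 and 35. Slc47a1 (MATE1, an exporter of organic cations) was low, from 0.289 CPM in rat 12 to 2.02 CPM in rat 32, with a log2 fold change of 0.22 (SE 0.49). Rats 32 and 35 were also the top pair for Slc47a1, whose log2 fold change was -0.53 without them and -0.23 (SE 0.51) with the set and without rats 6, 32 and 35.

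Slc22a8 (OAT3, also an organic anion transporter) had its highest level in a different blast-boldine library. It measured 14.5, 10.8, 7.54, 2.71, 10.2 and 5.72 CPM in blast-boldine rats 12, 17, 19, 20, 32 and 35 and 6.50, 7.01, 6.86, 10.1 and 2.67 CPM in blast-control rats 1, 4, 5, 7 and 9. Rat 12 was the highest library and the groups overlapped nearly throughout (log2 fold change 0.35, SE 0.39). Slc22a6 and Slc22a8 are neighbours on chromosome 1, from 205522959 to 205531179 and from 205498145 to 205516377, and share no exon bases. Their levels correlated at r = 0.48 (rho 0.39), and at 0.60 with the set removed. Slc22a8 correlated with Slc13a4, described next, at r = 0.66 (rho 0.59), and at 0.92 with the set removed.

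Slc13a4, a sodium-coupled sulfate transporter of leptomeninges and choroid plexus, had the highest level per length among the transporters, at a mean of 12.5 CPM per kb of exon over 11 libraries against 1.82 for Slc6a13. It lies on chromosome 4 from 63944312 to 63988168 and measured 50.5, 33.4, 6.69, 8.71, 49.0 and 18.6 CPM in blast-boldine rats 12, 17, 19, 20, 32 and 35. In blast-control rats 1, 4, 5, 7 and 9 it measured 35.4, 7.11, 4.71, 63.8 and 6.25 CPM. The highest library was a control, rat 7, and the lowest, rat 5, was also a control, a span of 13.5-fold. The log2 fold change was 0.27 (SE 0.71, edgeR adjusted p = 1.0), and single rats decided it. It was 0.01 without rat 12, 1.06 without rat 7, and 0.93 (SE 1.22) with the set and without rats 6, 32 and 35.

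The insulin-like growth factor genes Igf2 and Igfbp2 followed Slc13a4 and not Slc6a13. Igf2, a growth factor that leptomeninges and choroid plexus secrete into the cerebrospinal fluid, lies on chromosome 1 from 197814409 to 197824517. It measured 135, 68.3, 26.0, 27.5, 186 and 42.1 CPM in blast-boldine rats 12, 17, 19, 20, 32 and 35 and 129, 20.7, 14.0, 163 and 16.2 CPM in blast-control rats 1, 4, 5, 7 and 9. Rats 32, 7, 12 and 1 all lay above 100 CPM, a pair from each treatment. Igfbp2, which binds insulin-like growth factors, measured 92.9, 45.2, 9.31, 11.2, 68.4 and 24.0 CPM in the same blast-boldine rats and 48.3, 8.0, 5.94, 52.0 and 9.51 CPM in the controls. The same 4 libraries and rat 17 were its highest.

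Over 11 libraries Igf2 correlated with Igfbp2 at r = 0.96 (rho 0.95) and with Slc13a4 at r = 0.98 (rho 0.96). Both values were 0.97 without rats 32 and 7, the 2 libraries farthest from the median of Igf2. Rats 1, 7, 12, 17 and 32 were the highest libraries for Igf2, Igfbp2 and Slc13a4 alike. Correlations within those rats, or within the rest, were not computed. The correlation of Igf2 with Slc6a13 was r = 0.31 (rho 0.35), and 0.19 without rats 32 and 7. These points share depth and library set with each other, and subtraction of the set means gave 0.96, 0.98 and 0.25 in the same order. The log2 fold changes between treatments were 0.22 (SE 0.70) for Igf2 and 0.78 (SE 0.70) for Igfbp2. They differed between the sets. In set A the difference in mean log2 CPM, blast-boldine minus blast-control, was -0.23 for Igf2, -0.14 for Igfbp2 and -0.29 for Slc13a4. In set B without rat 6 the differences were 1.86, 2.29 and 1.94.

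**Figure D2:**
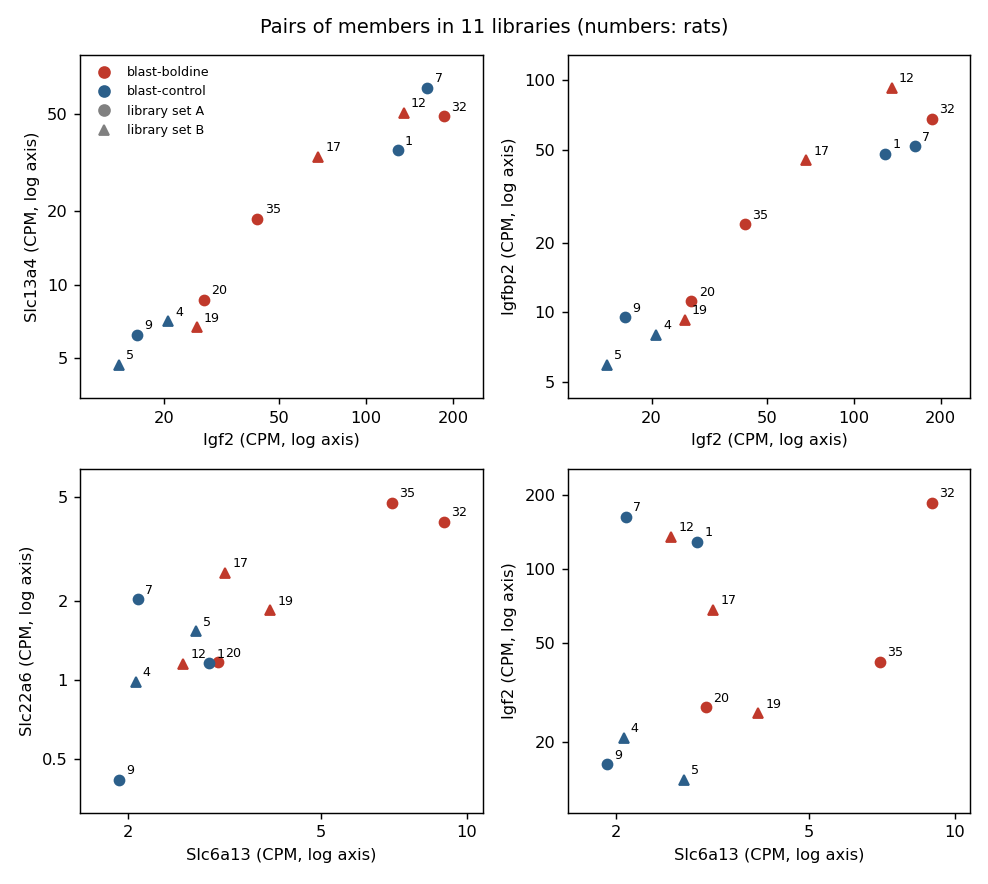
Each panel plots the CPM of a pair of members against each other on log axes, 1 point per library with its rat number, coloured by treatment and shaped by library set. Slc13a4 and Igfbp2 follow Igf2 closely (r = 0.98 and 0.96 on log2 CPM), while Igf2 against Slc6a13 is scattered (r = 0.31) and rats 32 and 35 stand apart for Slc6a13 and Slc22a6.

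The promoters of 3 of the genes with this order of libraries, Slc13a4, Igfbp2 and Fmod, are shown to let their sequences be compared, beside that of Aldh1a2, a member with another order. Each is the 250 bases before the annotated start in RefSeq on GRCr8, a later build than that of the counts, and is written on the strand of the gene. Capitals mark the TATA box, spelled TATAAA, the CCAAT box, spelled CCAAT, and the GC box, spelled GGGCGG, searched on both strands, and no match overlapped another. They lie at chr4:64955987-64956236 on the minus strand (Slc13a4) and, on the plus strand, at chr9:81864561-81864810 (Igfbp2), chr13:48045317-48045566 (Fmod) and chr8:80758391-80758640 (Aldh1a2).
Slc13a4: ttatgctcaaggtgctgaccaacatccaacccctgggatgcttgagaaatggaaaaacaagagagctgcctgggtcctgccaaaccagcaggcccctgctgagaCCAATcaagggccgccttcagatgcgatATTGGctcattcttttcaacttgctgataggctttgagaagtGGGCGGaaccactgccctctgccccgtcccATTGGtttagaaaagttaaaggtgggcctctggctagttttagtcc
Igfbp2: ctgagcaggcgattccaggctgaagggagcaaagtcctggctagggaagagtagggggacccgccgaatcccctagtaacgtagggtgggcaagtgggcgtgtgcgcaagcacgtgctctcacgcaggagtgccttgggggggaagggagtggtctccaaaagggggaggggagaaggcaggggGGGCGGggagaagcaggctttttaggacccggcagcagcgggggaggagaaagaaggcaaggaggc
Fmod: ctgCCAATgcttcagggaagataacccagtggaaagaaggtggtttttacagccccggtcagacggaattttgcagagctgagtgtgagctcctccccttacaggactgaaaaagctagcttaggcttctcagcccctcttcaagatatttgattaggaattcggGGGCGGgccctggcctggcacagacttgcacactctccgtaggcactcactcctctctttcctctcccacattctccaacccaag
Aldh1a2: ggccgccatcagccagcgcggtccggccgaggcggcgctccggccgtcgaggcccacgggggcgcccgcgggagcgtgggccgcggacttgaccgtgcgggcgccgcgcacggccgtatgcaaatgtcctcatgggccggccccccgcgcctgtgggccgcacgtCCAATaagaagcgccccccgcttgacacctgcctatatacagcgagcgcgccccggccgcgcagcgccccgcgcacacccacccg
A GC box was found in Slc13a4, Igfbp2 and Fmod and not in Aldh1a2, and none of the 4 windows held a TATA box. Slc13a4 held CCAAT on 3 occasions, Fmod and Aldh1a2 held 1 each, and Igfbp2 held none. Over the 21 members with a promoter in the table used, 10 held the GC box, 8 the CCAAT box and 5 the TATA box. The shares over all 33469 promoters were 30.5%, 34.0% and 12.9%. A match of letters is a description and does not show that a factor binds there. The 4 genes were picked by their order of libraries, and the promoter of Igf2 is not shown. Nothing is therefore read from the boxes that the 4 share or lack.

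The last 2 insulin-like growth factor binding proteins were set apart from both patterns. Igfbp5 (chromosome 9, 74452371 to 74464953), which binds growth factor in the matrix and is also made by neurons, had the highest level per length of this group, at 28.0 CPM per kb. It measured 60.7, 59.5 and 55.3 CPM in blast-boldine rats 12, 17 and 19 and 32.8, 30.4 and 30.7 CPM in rats 20, 32 and 35. In controls it measured 71.1 and 60.1 CPM in rats 4 and 5 and 38.0, 33.5 and 29.6 CPM in rats 1, 7 and 9. All libraries of set B were above all of set A, and the set accounted for 93.6% of the variance of its log2 CPM, against a median of 65.4% over all genes tested and 31.4% over the members. The log2 fold change was -0.15 (SE 0.31) for Igfbp5 and, at the low end of the list, -0.54 (SE 0.35) for Igfbp4. Igfbp4 lay between 32.2 and 63.9 CPM in 10 libraries and at 130 CPM in control rat 5.

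The 6 collagen genes measured were all higher in blast-boldine rats by the fitted value, and none had an adjusted p under 0.05. Col3a1, a fibrillar collagen of loose connective tissue, lies on chromosome 9 from 47374611 to 47410547. It measured 6.13, 10.4, 8.85, 3.25, 14.6 and 10.5 CPM in blast-boldine rats 12, 17, 19, 20, 32 and 35. Blast-control rats 1, 4, 5, 7 and 9 measured 5.88, 3.85, 2.76, 8.43 and 2.25 CPM. Of the blast-boldine rats, 4 were above every control and rats 12 and 20 lay among them. The log2 fold change was 0.94 (SE 0.40, edgeR adjusted p = 1.0), 0.59 without rats 32 and 35, and 0.52 (SE 0.52) with the set and without rats 6, 32 and 35. Col1a2 and Col1a1, the chains of collagen I, were higher in blast-boldine rats by 0.72 (SE 0.38) and 0.53 (SE 0.31) on the log2 scale, and ranged from 7.09 to 36.4 CPM and from 4.34 to 16.3 CPM. The chains varied together: Col1a1 and Col1a2 correlated at r = 0.89 (rho 0.89) and Col1a2 and Col3a1 at r = 0.92 (rho 0.91), and at 0.80 and 0.87 without the 2 libraries farthest from the median.

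Col5a2, a chain of collagen V that helps start fibrils, had the highest level per length of the collagens, at 9.69 CPM per kb, and the narrowest range of all the members. It measured 59.9, 64.9, 54.1, 56.2, 59.0 and 68.4 CPM in blast-boldine rats 12, 17, 19, 20, 32 and 35 and 63.7, 72.3, 57.3, 49.5 and 43.2 CPM in blast-control rats 1, 4, 5, 7 and 9. The groups overlapped and the log2 fold change was 0.11 (SE 0.15). Its partner chain Col5a1 ranged more, from 8.92 to 39.2 CPM, with the 5 libraries of set B above those of set A, and the set accounted for 78.2% of its variance. Its log2 fold change was 0.12 (SE 0.42). Col6a2, of the microfibrillar collagen VI, ranged from 6.42 to 20.9 CPM (log2 fold change 0.22, SE 0.31).

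Among the 8 matrix glycoproteins and proteoglycans, 6 were higher and 2, Dcn and Bgn, lower in blast-boldine rats, by log2 fold changes of -0.03 (SE 0.26) for the proteoglycan biglycan (Bgn) to 0.67 (SE 0.52) for fibromodulin (Fmod). Fmod, which like Dcn binds collagen fibrils, measured 15.3, 9.62, 4.46, 3.56, 19.2 and 6.72 CPM in blast-boldine rats 12, 17, 19, 20, 32 and 35 and 10.1, 5.63, 2.15, 10.7 and 1.92 CPM in blast-control rats 1, 4, 5, 7 and 9. Its order of libraries was that of Slc13a4 (r = 0.92, rho 0.93, and 0.92 without rats 5 and 7), including the high control rats 1 and 7. Osteoglycin (Ogn), a proteoglycan of leptomeningeal fibroblasts, had the widest span of the list, from 2.37 CPM in rat 4 to 54.8 CPM in rat 32, or 23.1-fold. Its log2 fold change was 0.56 (SE 0.68). It was -0.47 without rats 32 and 35 and 0.64 (SE 0.70) with the set and without rats 6, 32 and 35, so the turn in sign was not seen once the set was in the fit. Lumican (Lum) had 11.8 and 8.21 CPM in rats 32 and 35 and 1.02 to 7.34 CPM in the others, with a log2 fold change of 0.61 (SE 0.47). That of Lum was -0.02 without this pair and 0.53 (SE 0.29) with the set and without rats 6, 32 and 35, and 63.2% of its variance lay between the sets.

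Fibronectin (Fn1), a matrix glycoprotein of vessels and meninges, measured 54.1, 69.7, 97.5, 13.1, 33.6 and 29.6 CPM in blast-boldine rats 12, 17, 19, 20, 32 and 35 and 21.6, 79.8, 62.1, 23.2 and 11.5 CPM in blast-control rats 1, 4, 5, 7 and 9. The libraries of set B were again all above those of set A, and the set accounted for 78.8% of its variance. Its log2 fold change was 0.32 (SE 0.53). Matrix Gla protein (Mgp), an inhibitor of calcification, and Islr, a marker of stromal fibroblasts, ranged from 1.3 to 7.57 CPM and from 0.819 to 8.14 CPM, with log2 fold changes of 0.46 (SE 0.31) and 0.45 (SE 0.47).

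The 3 retinoid and prostaglandin genes were each higher in blast-boldine rats by the fitted value. Aldh1a2, the enzyme that makes retinoic acid in meningeal fibroblasts, lies on chromosome 8 from 71877850 to 71957107. It measured 6.59, 16.1, 13.5, 4.33, 16.1 and 13.5 CPM in blast-boldine rats 12, 17, 19, 20, 32 and 35 and 5.86, 6.12, 8.40, 8.02 and 3.50 CPM in blast-control rats 1, 4, 5, 7 and 9. Rats 17, 19, 32 and 35 were above every control, and rats 12 and 20 lay within the control range. The log2 fold change was 0.88 (SE 0.34, edgeR adjusted p = 1.0), 0.66 without rats 32 and 35, and 0.28 (SE 0.38) with the set and without rats 6, 32 and 35. The retinoic acid binding protein Crabp2 ranged from 1.0 to 7.99 CPM (log2 fold change 0.70, SE 0.43).

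Ptgds, which makes prostaglandin D2 and carries lipids in the cerebrospinal fluid, had the highest level per length of all the members, at 301 CPM per kb. It lies on chromosome 3 from 8281899 to 8284833 and measured 136, 205, 149, 205, 430 and 455 CPM in blast-boldine rats 12, 17, 19, 20, 32 and 35. In blast-control rats 1, 4, 5, 7 and 9 it measured 175, 160, 114, 295 and 192 CPM. Only rats 32 and 35 were above the controls, and the log2 fold change was 0.62 (SE 0.40) with them, 0.02 without them, and 0.11 (SE 0.21) with the set and without rats 6, 32 and 35.

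Of the transcription regulators, Foxc1, a forkhead factor needed for the meninges to form, measured 8.67, 13.9 and 13.5 CPM in blast-boldine rats 12, 17 and 19 and 2.93, 5.24 and 3.63 CPM in rats 20, 32 and 35. In controls it measured 9.68 and 10.4 CPM in rats 4 and 5 and 3.34, 3.72 and 2.92 CPM in rats 1, 7 and 9. The sets did not overlap, the set accounted for 89.6% of its variance, and the log2 fold change was 0.43 (SE 0.48). Foxc1 correlated with Fn1 at r = 0.95 (rho 0.95), and at 0.77 with the set removed. Nupr1, a small stress-induced chromatin protein and the highest of this group per length (13.5 CPM per kb), lies on chromosome 1 from 181213292 to 181215327. It measured 7.22, 7.34, 9.08, 7.26, 14.2 and 8.36 CPM in blast-boldine rats 12, 17, 19, 20, 32 and 35 and 8.14, 6.22, 11.6, 7.39 and 6.09 CPM in blast-control rats 1, 4, 5, 7 and 9. Rat 32 stood above the rest, and the log2 fold change was 0.20 (SE 0.24). Foxd1, a forkhead factor of stromal progenitors, was near the floor of detection, with 2 counts in rat 9 and 3 in rats 4 and 20.

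Vimentin (Vim), an intermediate filament of fibroblasts, endothelium and reactive glia, had the smallest unadjusted p of the list. It lies on chromosome 17 from 76668701 to 76677186 and measured 80.3, 111, 85.3, 61.4, 80.4 and 85.1 CPM in blast-boldine rats 12, 17, 19, 20, 32 and 35. Blast-control rats 1, 4, 5, 7 and 9 measured 48.0, 68.6, 71.2, 54.5 and 54.3 CPM. Every blast-boldine rat but rat 20 was above every control. The log2 fold change was 0.55 (SE 0.19, edgeR adjusted p = 1.0), and 0.56 without rats 32 and 35. With the library set as a covariate it was 0.47 (SE 0.11, edgeR adjusted p = 0.889) without rat 6 and 0.33 (SE 0.12) without rats 6, 32 and 35. DESeq2 with the set and without rat 6, a fit chosen after seeing the data, also gave 0.47 (DESeq2 adjusted p = 0.0769). Within sets the difference in mean log2 CPM was 0.51 in set A and 0.39 in set B without rat 6. Serpinf1 (PEDF, an inhibitor of vessel growth) and the thrombin receptor thrombomodulin (Thbd) were the remaining members. Their log2 fold changes were -0.09 (SE 0.35) and 0.28 (SE 0.28), and Serpinf1 had 89.5% of its variance between the sets, with set A above set B.

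**Figure D3:**
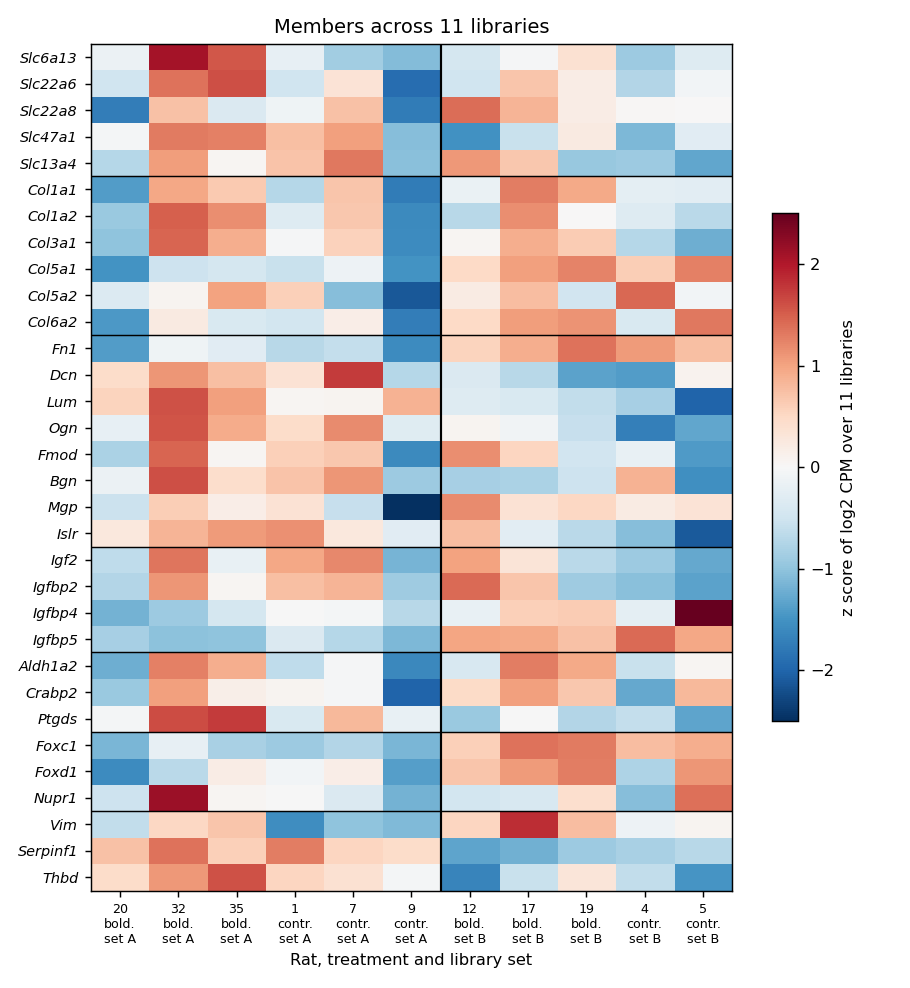
The 32 members (rows, in role groups divided by lines) in 11 libraries (columns, by library set and treatment), coloured by z score (log2 CPM minus the member's mean, divided by its SD over these libraries). Slc13a4, Fmod, Igf2 and Igfbp2 are high in rats 32, 1, 7, 12 and 17, Slc6a13 and Ptgds in rats 32 and 35, and Fn1, Foxc1 and Igfbp5 in set B.

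Between treatments as a whole, 27 of the 32 members were higher in blast-boldine rats and 5 (Dcn, Bgn, Igfbp4, Igfbp5 and Serpinf1) lower, beside 51.3% of all genes tested that were higher. The median log2 fold change was 0.40 over the members, from 0.25 without control rat 9 to 0.54 without control rat 7, and 0.00 over all genes, and the members ran from -0.54 to 1.07. No member had an adjusted p under 0.05, nor did any gene (0.0%) in edgeR or in DESeq2. An unadjusted p under 0.05 was reached by 5 members (Vim, Slc6a13, Aldh1a2, Slc22a6 and Col3a1), all higher, beside 0.552% of genes higher and 0.519% lower, and by 3 members in DESeq2. In none of the 32 members did the 6 blast-boldine rats lie apart from the 5 controls without overlap, beside 0.146% of all genes tested. Since the members were chosen with this difference known, nothing is read from these counts.

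Without rat 6 the fold changes changed little (median 0.39, 27 members higher). An unadjusted p under 0.05 was then reached by 5 members, beside 175 of the 12529 genes tested, in either direction. With the library set as a covariate as well, 7 members had an unadjusted p under 0.05, all higher, beside 1.81% of the 12529 genes then tested. The smallest edgeR adjusted p among members was 0.889. Lum and Ptgds joined the 5 members named above. With rats 32 and 35 left out, 1 member, Vim, had an unadjusted p under 0.05, beside 0.862% of the 12300 genes then tested that were higher at this threshold, the median log2 fold change was 0.30 and 22 members were higher. Leaving out rats 6, 32 and 35 with the set as a covariate gave a median of 0.16, with 19 members higher. The share of all genes that were higher was computed only for the fit to all 12 libraries (51.3%). Nothing is therefore read from the counts of members higher in the other fits.

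**Figure D4:**
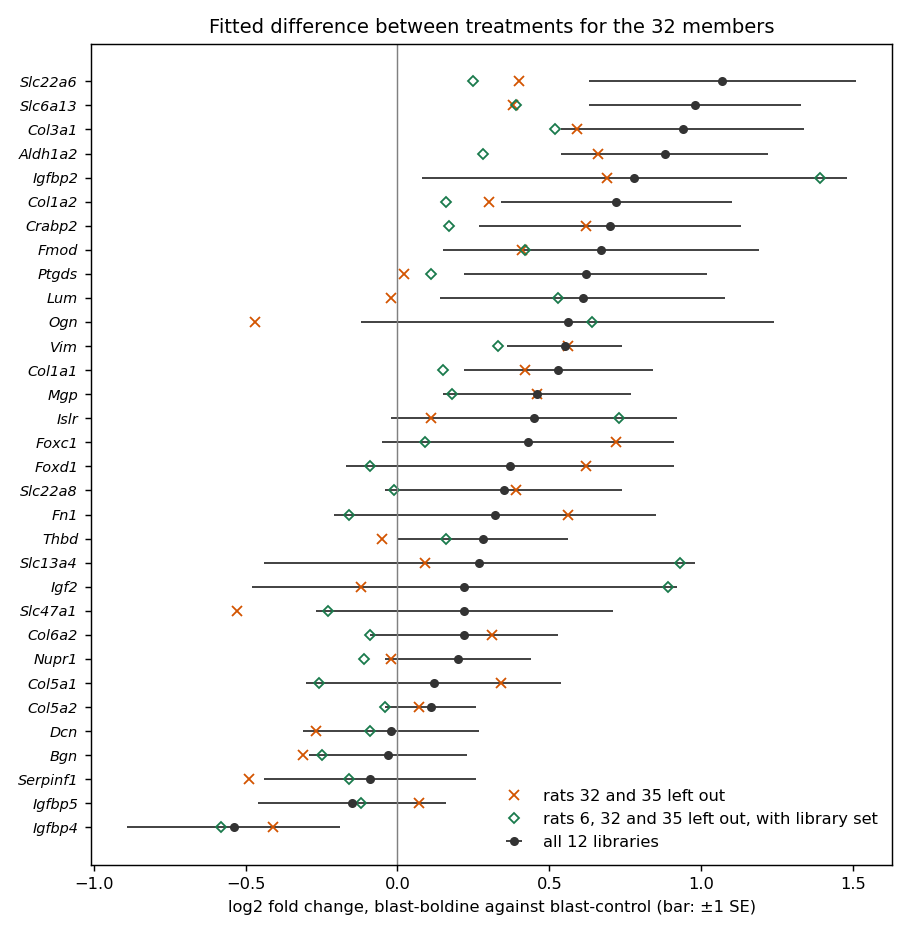
Log2 fold change of the 32 members, blast-boldine against blast-control, from the fit to all 12 libraries (points, with bars of 1 SE) from the fit without rats 32 and 35 (crosses), and from the fit with the library set and without rats 6, 32 and 35 (open diamonds). The points run from -0.54 (Igfbp4) to 1.07 (Slc22a6), the crosses of Slc6a13, Slc22a6 and Ptgds lie at 0.38, 0.40 and 0.02, and their diamonds at 0.39, 0.25 and 0.11.

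Whether the members varied together from library to library was described by correlations over 11 libraries, which share library set and depth. A member's log2 CPM correlated with the mean of the other members at a median r of 0.56, from -0.03 (Igfbp5) to 0.94 (Col3a1), and other genes did so at a median of 0.01. With the set removed the median was 0.73, and 26 of the 32 members were above 0.5, as were 9.09% of the other genes. The 6 at or below 0.5 were Igfbp5 (-0.08), Igfbp4 (0.04), Lum (0.28), Serpinf1 (0.29), Col5a2 (0.47) and Islr (0.49). Between pairs of members the median r was lower, at 0.38 over 496 pairs and 0.47 with the set removed.

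How far the members scaled with Slc6a13 was described by the slope of log2 CPM on that of Slc6a13, which is lowered by counting error in Slc6a13 (21 to 195 counts) and bears on no source by itself. The median correlation with Slc6a13 was 0.41 and the median slope 0.44 (0.54 and 0.41 with the set removed). Without rats 32 and 35 the median correlation was 0.29, and 0.26 with the set removed. Of the 31 other members, 6 had a set-removed slope within 0.25 of 1, 25 were lower and none was higher. The 6 were Slc22a6 (1.14), Crabp2 (0.95), Col3a1 (0.93), Aldh1a2 (0.91), Ogn (0.83) and Col1a2 (0.80), and Dcn was at 0.12. Slopes of other genes were not computed, so nothing is read from these counts. Rats 32 and 35 were the top pair for 8 members (Slc6a13, Slc22a6, Slc47a1, Col1a2, Col3a1, Lum, Ptgds and Thbd) and for 1.49% of other genes. Rat 32 alone was the highest library for 13 of the 32 members and for 4.02% of all genes tested, and nothing is read from this, since the members were chosen on these libraries.

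Choroid plexus markers moved with the order of libraries that Slc13a4, Igf2, Igfbp2 and Fmod shared. Ttr, the thyroid hormone carrier of the choroid plexus epithelium, measured 893, 645, 4.39, 17, 791 and 38.9 CPM in blast-boldine rats 12, 17, 19, 20, 32 and 35 and 494, 11.6, 11.3, 880 and 9.26 CPM in blast-control rats 1, 4, 5, 7 and 9. Its 5 highest libraries (rats 12, 7, 32, 17 and 1) were apart from the other 6, so no correlation with it is given. They were also the 5 highest for these 4 members, as they were for 0.879% of other genes, and 4 of the 5 were shared by Slc22a8, Ogn and Mgp. The choroid plexus epithelial genes Kl and Folr1 had the same 5 highest libraries, at 81.5 to 151 CPM and 12.7 to 26.8 CPM against at most 3.18 and 3.63 CPM in the others. The summed level of the 15 choroid plexus markers ran from 170.0 to 2614 CPM in blast-boldine rats and from 161 to 2917 CPM in the 5 controls. Of the 14 tested, 12 were higher in blast-boldine rats (median log2 fold change 0.31) and none had an unadjusted p under 0.05. None of the 15 was at 0 in all 11 libraries. The part of choroid plexus in the levels of these members was not tested.

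Markers of other cell types at the brain border moved with Slc6a13 to different degrees. The sum of 5 border macrophage markers ran from 12.6 to 21.5 CPM in blast-boldine rats and from 10.4 to 16.4 CPM in controls. It correlated with Slc6a13 at r = 0.87 with the set removed and 0.84 without set removal. Mrc1, the highest of these markers, measured 10.1 and 12.3 CPM in rats 32 and 35 and at most 7.93 CPM elsewhere. Cd163, the next highest, did not share this order. It had its highest level in rat 12 (4.05 CPM) and measured 3.12 and 3.63 CPM in rats 32 and 35. In the 5 controls Cd163 measured 2.15 to 3.58 CPM. The correlation of the sum with Slc6a13 without rats 32 and 35 was not computed. All 4 markers that were tested were higher in blast-boldine rats, and F13a1 (log2 fold change 0.70, SE 0.24) had an unadjusted p under 0.05. The sum of 12 endothelial markers ran from 236 to 533 CPM and from 227 to 499 CPM. Its correlation with Slc6a13 was r = 0.62 with the set removed and -0.08 without set removal. Of these 12, 11 were higher in blast-boldine rats, with a median log2 fold change of 0.23 and none at that threshold. With the set removed, correlations of the members with this endothelial sum ran from -0.18 (Igfbp5) to 0.92 (Foxd1, from 2 to 24 counts per library). Those of other genes with it were not computed, so nothing is read from this range. With the set removed, the sums for mural cells, microglia, astrocytes, oligodendrocytes, neurons, ependyma and erythrocytes gave r = 0.31, -0.19, -0.20, -0.11, -0.28, 0.10 and -0.17. Without set removal the values were -0.09, 0.19, 0.02, 0.13, -0.36, 0.25 and 0.14 for these cell types in the same order. Their medians were 0.09 for mural cells (8 of 10 higher), -0.12 for microglia (1 of 6), -0.11 for astrocytes (1 of 6), 0.00 for oligodendrocytes (3 of 6), -0.02 for neurons (4 of 9), 0.39 for ependyma (4 of 5) and -0.25 for erythrocytes (2 of 6), and in these lists 1 gene, the ependymal Ccdc153 (log2 fold change 1.02, SE 0.29), had an unadjusted p under 0.05. None of these markers was at 0 in all 11 libraries, and their part in the members' levels was not tested.

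Lists of further genes of the same biology gave smaller median log2 fold changes than the members. Since the members were chosen with this difference in view, nothing is read from that contrast. Of 13 other meningeal genes tested, 12 were higher in blast-boldine rats with a median log2 fold change of 0.16, and 2, the transcription factors Osr1 (0.90, SE 0.35) and Tbx18 (0.58, SE 0.25), had an unadjusted p under 0.05. Their sum correlated with Slc6a13 at r = 0.71 with the set removed. The sum of the collagen-processing genes below did so at 0.51, and that of the other fibroblast and matrix genes below at 0.20. Of 12 genes that process collagen, 1 was higher at that threshold (P4ha1, 0.25, SE 0.11) and 1 lower (P4ha3, -1.0, SE 0.38), both prolyl hydroxylase subunits, and the median was 0.08. Of 15 other fibroblast and matrix genes tested, 12 were higher and none had an unadjusted p under 0.05. They ran from -0.17 (Postn, SE 0.31) to 1.13 (Thbs2, SE 0.54), with a median of 0.12. Osr1, Tbx18, P4ha1, P4ha3, F13a1 and Ccdc153 were picked out after their values were seen, and their adjusted p was 1.0 in edgeR.

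Outside the list, the genes whose set-removed log2 CPM was most like the members' mean over 11 libraries were Cdh5 (r = 0.96), Olfml2a (0.95), Ddr2 (0.94), Slc6a20 (0.94), Nos3 (0.92), Col14a1 (0.92), Lamc3, LOC100361083, Angpt2 and Bicc1 (0.91 each). Cdh5 and Nos3 are endothelial genes, Ddr2 is a receptor for fibrillar collagen and Col14a1 a fibril-associated collagen. Cdh5 ranged from 2.58 to 18.9 CPM with its highest level in rat 19, and Ddr2 from 14.7 to 25.3 CPM with its highest in rat 32. The likeness without set removal was 0.41 for Cdh5, 0.24 for Nos3 and 0.32 for LOC100361083. For the other genes named it ran from 0.62 (Olfml2a) to 0.94 (Ddr2).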

How the data were processed

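Hippocampal RNA from 12 rats was sequenced, 1 stranded library of ribosome-depleted total RNA per rat. The authors screened, trimmed and deduplicated reads with HTStream (reads under 50 bases dropped), aligned them to mRatBN7.2 with STAR 2.7.11b and counted exon reads per RefSeq gene by strand with featureCounts (Subread 2.0.1). The deposited values are these integer counts, without normalization, for 17494 genes, and gene positions are those of the same table. Versions are from the submitters' processing notes, the steps from the study's methods.

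Groups came from the sample labels. The members and the 13 companion lists were chosen with earlier results of these data known. Counts were tested with edgeR 4.0.16 in R 4.3.3 (quasi-likelihood test, two-sided, TMM, filterByExpr at a minimum of 10 counts, treatment as the only term, 12 libraries), with Benjamini-Hochberg adjustment over all 12325 genes tested. P-values measure the spread between rats, since each library is from 1 rat. CPM were computed from TMM-normalized library sizes, and logarithms (log2 CPM) with a prior count of 2. Totals were 10148474 to 40850106 counts in 11 libraries and 74008 in rat 6, and floors of 3 counts cover counting error only.

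Library sets are the assignment, among the 4 that let rat numbers rise with the suffix, that accounted for most of the first principal component. The other 3 accounted for 57.32%, 14.94% and 2.843%. Correlations (Pearson's r, Spearman's rho) and slopes used log2 CPM in the 11 libraries other than rat 6. Given with full statistics were Slc6a13, Dcn, the highest member per kb in each of 7 role groups, and the 5 members with the smallest unadjusted p, 11 in all. Other members appear with ranges or values where their order of libraries is described. Promoters came from RefSeq (GRCr8), in which 21 of 32 members were matched, and promoters of the other 11 were not used. The alternatives were DESeq2 1.42.0, RLE size factors, no filter, a prior count of 0.5, the set as a covariate, and each rat left out. Leaving out rats 32 and 35, and DESeq2 with the set and without rat 6, were chosen after seeing the data. The scripts were tested on simulated data. Correlations and plots were made in Python 3.11.15 (pandas 2.3.3, numpy 2.4.6, matplotlib 3.10.9).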

Additional observations from a re-analysis of the deposited data

Results flagged for a closer look

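In 64 checks of a member within a group (the 6 blast-boldine rats, or the 5 blast-controls without rat 6), 2 libraries stood apart from the rest of their group by Dixon's criterion on log2 CPM, which chance meets in about 1 in 20 groups. Igfbp4 was at 130 CPM in blast-control rat 5, and the nearest control, rat 1, was at 49.8 CPM, a gap of 0.79 of the group's range on the log2 scale. Nupr1 was at 14.2 CPM in blast-boldine rat 32, and the nearest, rat 19, was at 9.08 CPM, a gap of 0.65 of the range on that scale. The cause of either value was not tested.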

How the results depend on the processing

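No setting gave a gene or a member with an adjusted p under 0.05. The number of genes with an unadjusted p under 0.05 was 132 in edgeR, 85 in DESeq2, 254 with no filter, 191 without rats 32 and 35, 474 with the set as a covariate, 670 with the set and without rat 6, 736 with the same in DESeq2, and 630 with the set and without rats 6, 32 and 35. It ran from 85 to 214 with each rat left out. The 5 members at this threshold became 3 in DESeq2, 9 with the set, 10 in DESeq2 with the set and without rat 6, 1 without rats 32 and 35, 1 without rats 6, 32 and 35 with the set, and 2 (without rat 32 or without rat 9) to 7 with each rat left out. The log2 fold change of Dcn turned from -0.02 to 0.02 with the set and ran from -0.14 to 0.24 with each rat left out (0.01, 0.03, 0.04, 0.09 and 0.24 without rats 1, 12, 17, 19 and 7). Without rats 32 and 35, Igfbp5 turned from -0.15 to 0.07 and Nupr1 from 0.20 to -0.02, and without rats 6, 32 and 35 with the set Nupr1 was at -0.11 and Col5a2 at -0.04. The median correlation of members with the rest was 0.56, and 0.86 over all 12 libraries and 0.73 with the set removed. With all 12 libraries the median correlation with Slc6a13 turned to -0.43 and the median slope to -0.80, since rat 6 has 1 count of Slc6a13, worth 15.8 CPM, and 0 counts of 22 members. Leaving out 1 of the 11 rats gave 0.43 to 0.59, 0.31 to 0.48 and 0.34 to 0.51 for the 3 values. The other alternative values, 127 for counts and medians and 210 for single members, kept their direction or moved by less than their error. No paired analysis was possible because the groups share no rat numbers. Depth limits every member in rat 6, where 3 counts are worth 47.5 CPM.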
